A study of Danio rerio with 16 samples.

Results

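A set of 5 miRNAs of the blood vessel wall was followed in zebrafish embryos exposed to valproic acid, an anticonvulsant drug that also inhibits histone deacetylases and is abbreviated VPA. They were taken by name from the array: dre-miR-126, dre-miR-221 and dre-miR-222, which are known from endothelial cells, and dre-miR-143 and dre-miR-145, which are known from smooth muscle (dre, for Danio rerio, is left out from here on). Passenger (star) arms were left out. The 5 were among 245 zebrafish miRNAs on the array, and all 5 were among the 178 that passed the filter on low signal.

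Embryos of the wild-type TL strain received VPA or its carrier, ethanol, from 4 hours post-fertilization (hpf), and whole embryos were sampled at 48 and at 96 hpf. The 4 groups were vehicle at 48 hpf, VPA at 48 hpf, vehicle at 96 hpf and VPA at 96 hpf, with 4 samples each. No group was left without ethanol or VPA, and the VPA concentration is not given in the sources used here. Total RNA was hybridized to 16 one-colour Agilent miRNA arrays, 1 array per sample.

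In vertebrates miR-126 is carried by the endothelial gene Egfl7 and lowers inhibitors of VEGF signalling, which keeps vessels intact. The miR-221 and miR-222 pair is transcribed from neighbouring sequences and acts in endothelial sprouting in zebrafish and in smooth muscle growth in mammals. In mammals miR-143 and miR-145 come from a shared transcript and favour the contractile state of smooth muscle, and in zebrafish they are also known from the gut wall and the outflow tract of the heart.

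The array reads each miRNA with probes of nested length, and the longest probe of each of the 5 was the brightest and stood for it. These probes are shown because every value below is the signal bound to them. Each is written 5′ to 3′ as in the scanner files, and capitals mark the bases that the shortest probe of the same miRNA lacks.
miR-126: gcattattactcacggtAC
miR-221: gaaacccagcagacaatgT
miR-222: gagacccagtagccA
miR-143: gagctacagtgcttC
miR-145: gggattcctgggaaA

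The files place the miR-126 probe on chr8:11385667-11385684 of danRer6, with the positions given in descending order. The probe of miR-126*, the other arm of the same hairpin, lies on chr8:11385627-11385646, with 20 bases between them. The miR-143 probe is placed on chr14:40450069-40450083 and the miR-145 probe on chr14:40451752-40451766, in ascending order and 1668 bases apart. Both are placed again, at chr14:40496750-40496764 for miR-143 and chr14:40498433-40498447 for miR-145, which is 46681 bases further along. The files give no position for the miR-221 and miR-222 probes. Symbols of 4 of the 5 members were found in the RefSeq gene table of another assembly (GRCz12tu), from which no coordinates were taken. There mir-221 and mir-222 are each other's nearest gene, mir126a lies inside LOC141375582 and mir145 inside LOC137487609.

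Probes of this length can bind related miRNAs. The longest run that the miR-126 probe shared with the probe of any other zebrafish miRNA was tattactcacggt, 13 bases in common with the probe named miR-126b*. The miR-222 probe shared gacccagta, 9 bases, with miR-222b, whose probes were well above background on 0 arrays. The other 3 probes shared at most 7 bases with any other.

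Signals were divided by the 75th percentile of all spots on their array and are given as log2 of that ratio, so 0 is the level of that percentile. A level of one miRNA cannot be set against that of another on this scale, since probes differ in brightness. Before scaling, that percentile was 897 to 1220 on vehicle arrays and 507 to 2356 on VPA arrays at 48 hpf, and 1956 to 2406 on vehicle and 1249 to 6179 on VPA arrays at 96 hpf. The brightest array, VPA at 96 hpf replicate 4, had 212 saturated spots, but no spot of the 5 miRNAs was saturated on any array. All 48 hpf arrays lay on 1 slide and all 96 hpf arrays on another, so age and slide cannot be told apart. VPA and vehicle were compared within a slide, but in separate array columns, so treatment and column cannot be told apart. In whole embryos, fewer cells of a type and less miRNA per cell cannot be told apart. The labels do not say whether replicates are separate clutches, and the p-values cover the spread among these samples alone, which may be technical.

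At 48 hpf, 2 of the endothelial miRNAs, miR-126 and miR-221, rose with VPA, 1.13- and 1.17-fold. Both calls ended under other scalings of the arrays, and with normexp background correction both effects turned below 0. Neither miR-222 nor the smooth muscle miRNA miR-143 passed the test, and miR-145 was not well above background on any 48 hpf array. At 96 hpf miR-145 fell, a call that ended with quantile normalization. It also ended without a floor, where the effect kept its size and the SE grew. The other 4, miR-126 and miR-221 among them, did not pass the test at 96 hpf over all arrays. From 48 to 96 hpf miR-143 rose and miR-222 fell with or without VPA. miR-221 fell as well, but its call in vehicle embryos ended under several other scalings and with its shorter probe. miR-145 rose in vehicle embryos. In VPA embryos it rose from values at or near the floor, a call that held without a floor but turned below 0 with normexp.

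**Figure D1:**
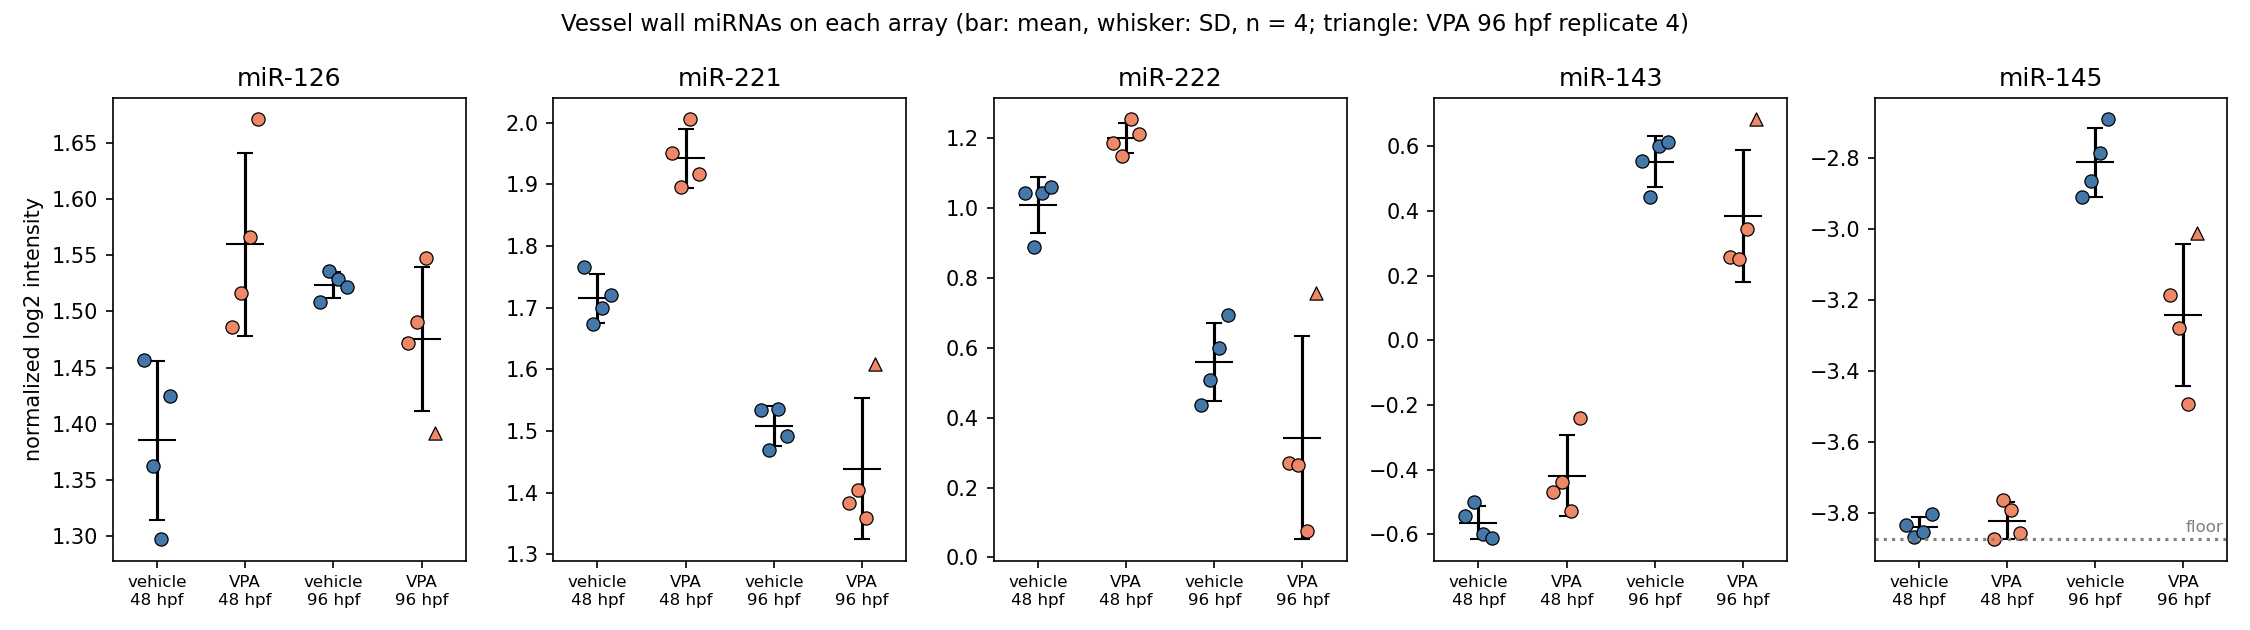
Normalized log2 intensity (y axis, a separate range in each panel) of the 5 miRNAs on each of the 16 arrays, by group on the x axis. Points are arrays, horizontal bars are means and whiskers are SD (n = 4), and the dotted line in the miR-145 panel is the floor at -3.87. The triangle, VPA at 96 hpf replicate 4, is the highest of its group in miR-221, miR-222, miR-143 and miR-145 and the lowest in miR-126.

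miR-126, which supports VEGF signalling in endothelium, read 1.46, 1.36, 1.30 and 1.42 on the vehicle arrays at 48 hpf (replicates 1 to 4). On the VPA arrays at 48 hpf it read 1.49, 1.52, 1.57 and 1.67. The groups did not overlap, and the lowest VPA array lay just above the highest vehicle array. The VPA effect was 0.17 ± 0.05 (log2, SE, n = 4 and 4), a 1.13-fold rise with a 95% interval of 1.04 to 1.22 and an adjusted p of 0.0210 (limma, Benjamini-Hochberg over 178 miRNAs). Without VPA 48 hpf replicate 4, the brightest array at that age, the effect was 0.14 and the adjusted p 0.0595. Without vehicle 48 hpf replicate 3, the lowest array, it was 0.15 with an adjusted p of 0.0755.

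miR-221, which lowers a cell cycle inhibitor in endothelial tip cells of zebrafish, read 1.77, 1.67, 1.70 and 1.72 on vehicle and 1.95, 1.90, 2.01 and 1.92 on VPA arrays at 48 hpf. Every VPA array was above every vehicle array, with a gap between the groups larger than the range within either. The effect was 0.23 ± 0.05 (log2, SE, n = 4 and 4), a 1.17-fold rise with a 95% interval of 1.08 to 1.27 and an adjusted p of 0.00565 (limma). Leaving out any single array left this call in place, but it ended with the percentile taken over probes detected on every array (0.17, adjusted p = 0.0591) and with quantile normalization (0.11, adjusted p = 0.340), under which the miR-126 call ended as well. With normexp background correction both effects turned below 0 (-0.01 for miR-221 and -0.04 for miR-126).

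miR-222, which shares its transcript and much of its sequence with miR-221, read 1.04, 0.89, 1.04 and 1.06 on vehicle and 1.19, 1.15, 1.26 and 1.21 on VPA arrays. These groups did not overlap either. The effect of 0.19 ± 0.11 (log2, SE, 95% interval -0.04 to 0.42) had an adjusted p of 0.204 in the limma fit of all 16 arrays, whose spread for miR-222 includes a wide VPA group at 96 hpf. Fitted with the 8 arrays of 48 hpf alone, or with all but VPA 96 hpf replicate 4, the same effect had adjusted p-values of 0.0145 and 0.0207 (limma). In the latter fit 46.6% of all 178 passed at 48 hpf.

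miR-143, known from smooth muscle, read -0.54, -0.50, -0.60 and -0.61 on vehicle and -0.47, -0.44, -0.53 and -0.24 on VPA arrays at 48 hpf. The groups overlapped, and VPA replicate 4 stood above the rest. The effect of 0.15 ± 0.09 (log2, SE, 95% interval -0.04 to 0.33) did not pass the test (adjusted p = 0.236, limma). miR-145, its partner, had 0% to 45.0% of its spots well above background on the 48 hpf arrays and stayed between -3.87 and -3.76, at or next to the floor of -3.87 in both groups, so no fold is given for this age.

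In all, 2 of the 5 passed at 48 hpf, both higher, where 29.2% of the 178 miRNAs passed and 16.3% passed higher. The split over all miRNAs, 29 higher and 23 lower, was 12 and 32 with the percentile over detected probes and 16 and 22 with quantile normalization. The groups of 3 of the 5 did not overlap, as for 41.6% of all 178. The median effect of the 5 was 0.17 on the log2 scale, beside 0.00 over all 178. Summed levels of 5 skeletal muscle miRNAs, all 5 well above background on every array, were higher in VPA embryos at this age as well (log2 of the sum 5.33 to 5.43 in vehicle and 5.62 to 5.66 in VPA). Those of 6 cartilage and mesenchyme miRNAs (3.94 to 4.10 and 3.84 to 3.91), 5 leukocyte miRNAs (-0.64 to -0.53 and -0.84 to -0.71), 3 neural miRNAs (5.29 to 5.39 and 5.12 to 5.28) and the liver miRNA miR-122 (-2.51 to -2.26 and -3.10 to -2.82) were lower in VPA embryos, again with no overlap. At most 2 of the 5 leukocyte miRNAs were well above background on all 4 arrays of a group. Taken singly, 1 of the 5 skeletal muscle miRNAs passed higher in limma. Of the 6 cartilage and mesenchyme miRNAs 2 passed lower, as did 1 of the 3 neural miRNAs and 0 of the 2 leukocyte miRNAs tested. miR-122 was not well above background on all 4 VPA arrays at 48 hpf. The erythroid sums overlapped, and the neural sums nearly touched (lowest 5.288 in vehicle, highest 5.280 in VPA). All sums, here and below, were taken with the scaling by the percentile of all spots alone. The part of these cell types in the vessel wall results was not tested.

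At 96 hpf, miR-145, which in mammals holds smooth muscle cells in their contractile state, read -2.91, -2.86, -2.79 and -2.69 on the vehicle arrays. On the VPA arrays it read -3.19, -3.28, -3.49 and -3.01. Every VPA array was below every vehicle array. The effect was -0.43 ± 0.08 (log2, SE, 95% interval -0.60 to -0.26, n = 4 and 4), and with an adjusted p of 0.000797 (limma) this was a 1.35-fold fall. The call ended, with an effect as large or larger, without a floor (-0.43, adjusted p = 0.216) and with normexp background correction (-0.51, adjusted p = 0.537). It ended with a smaller effect with quantile normalization (-0.10, adjusted p = 0.554) and in the unscaled deposited values (-0.20, adjusted p = 0.978). The shorter probe of miR-145 was well above background on 2 of 16 arrays and gave no readable effect.

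miR-143 read 0.56, 0.44, 0.60 and 0.61 on vehicle and 0.26, 0.25, 0.34 and 0.68 on VPA arrays at 96 hpf. Replicates 1 to 3 of the VPA group were below every vehicle array and replicate 4 was above them all. The effect of -0.17 ± 0.09 (log2, SE, 95% interval -0.36 to 0.02) did not pass the test (adjusted p = 0.164, limma).

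In miR-221 and miR-222 the same array stood above the rest, without a gap large enough to be flagged below. At 96 hpf miR-222 read 0.44, 0.51, 0.60 and 0.69 on vehicle and 0.27, 0.27, 0.08 and 0.76 on VPA arrays, an effect of -0.22 ± 0.11 (log2, SE, 95% interval -0.45 to 0.01) with an adjusted p of 0.141 (limma). miR-221 read 1.53, 1.47, 1.54 and 1.49 on vehicle and 1.38, 1.40, 1.36 and 1.61 on VPA arrays, an effect of -0.07 ± 0.05 (95% interval -0.18 to 0.05) with an adjusted p of 0.374 (limma). In both, VPA replicates 1 to 3 lay below all vehicle arrays and replicate 4 above them.

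miR-126 did not follow this pattern at 96 hpf. It read 1.51, 1.54, 1.53 and 1.52 on vehicle arrays, with an SD of 0.01, and 1.47, 1.49, 1.55 and 1.39 on VPA arrays. The VPA group spanned the vehicle group on both sides, and replicate 4 was its lowest array. The effect was -0.05 ± 0.05 (log2, SE, 95% interval -0.16 to 0.06, adjusted p = 0.514, limma), an interval that leaves out a fall of more than 0.16 and a rise of more than 0.06.

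At 96 hpf 1 of the 5 passed, lower, where 33.1% of all 178 miRNAs passed and 18.5% passed lower. The split over all miRNAs, 26 higher and 33 lower, was 39 and 23 with quantile normalization. Only the groups of miR-145 did not overlap among the 5, beside 32% of all 178. All 5 had a larger SD in VPA than in vehicle embryos at this age, as did 85.4% of the 178, and the median SD over the 178 was 0.07 in vehicle and 0.15 in VPA. Summed levels of the leukocyte miRNAs (log2 of the sum -0.51 to -0.34 in vehicle and -0.95 to -0.64 in VPA) and of miR-122 (0.32 to 0.38 and -0.12 to 0.13) were lower in VPA embryos at 96 hpf, and those of 2 erythroid miRNAs were higher (0.49 to 0.64 and 0.66 to 1.08). Of the 2 erythroid miRNAs, 1 passed higher (0.43, log2) and the other was lower without passing (-0.46, limma), so only their sum was higher. The muscle, cartilage and neural sums overlapped, and the part of any of these was not tested.

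Without VPA 96 hpf replicate 4, the brightest array, 4 of the 5 passed at 96 hpf, all lower. Over all 178, 38.2% then passed, counted in either direction. In miR-221, miR-222 and miR-143 that replicate was the only VPA array above the vehicle arrays. Lower effects and smaller spreads of these miRNAs were thus fixed by leaving it out and are no separate support. The effects were then -0.51 for miR-145 (adjusted p = 3.27e-05), -0.36 for miR-222 (0.000630), -0.27 for miR-143 (0.00430) and -0.13 for miR-221 (0.0216), while miR-126 stood at -0.02 (0.802), all on the log2 scale from limma. Replicate 3 was also brighter than every vehicle array of its age. Leaving out both of these and VPA 48 hpf replicate 4, miR-143, miR-145 and miR-222 passed at 96 hpf (41% of all 178 did), and miR-221 did not (-0.11, adjusted p = 0.0706). At 96 hpf that fit keeps only VPA replicates 1 and 2 against 4 vehicle arrays, with a spread shared over all groups. At 48 hpf miR-126, miR-221 and miR-222 then passed, at 0.14, 0.24 and 0.19 (45.5% of all 178 passed).

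**Figure D2:**
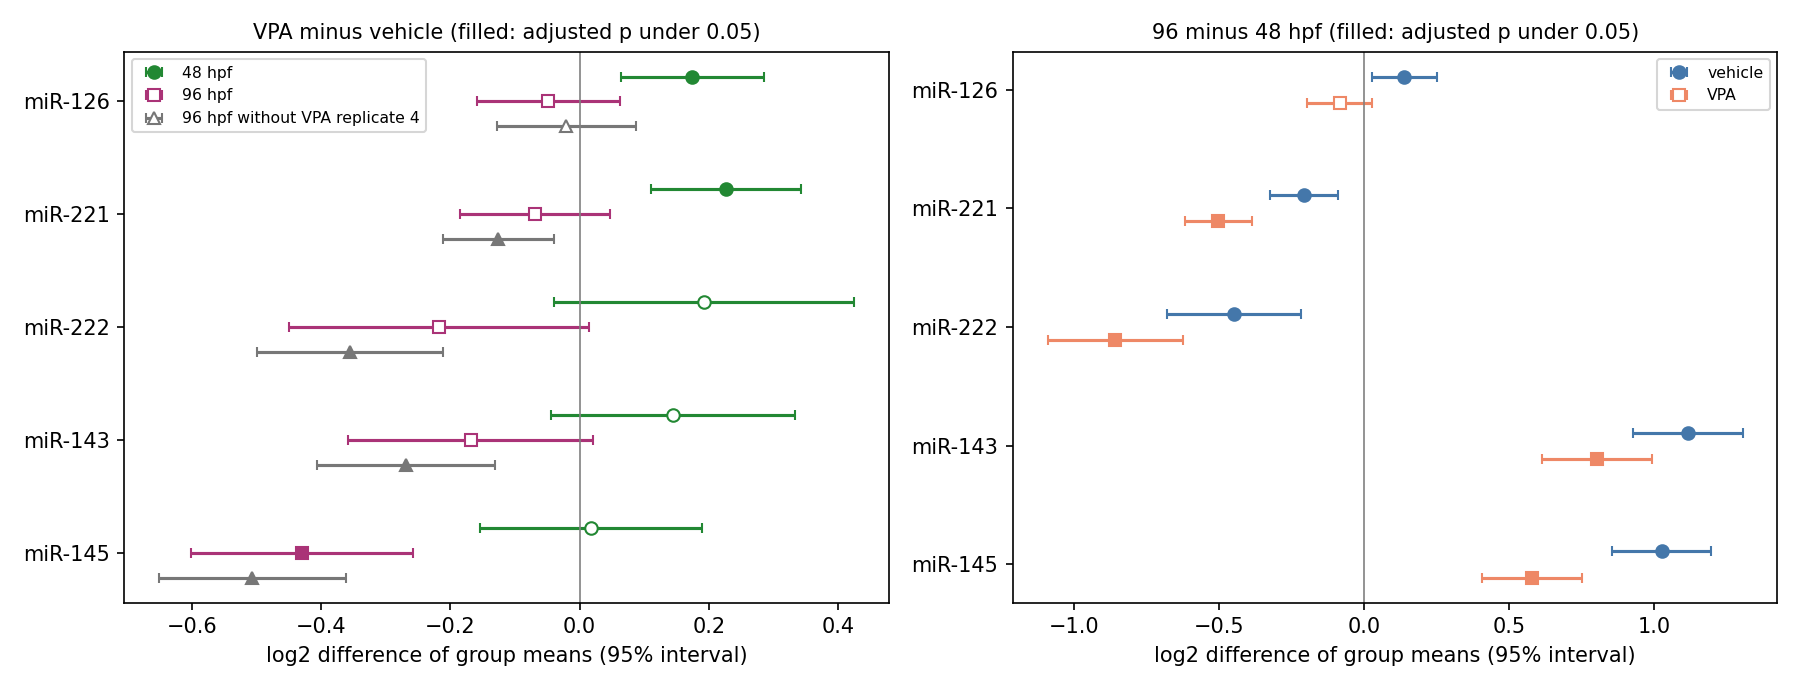
Left, log2 difference between VPA and vehicle group means (x axis) with 95% intervals for each miRNA, at 48 hpf, at 96 hpf and at 96 hpf without VPA replicate 4, and right, the difference between 96 and 48 hpf in vehicle and in VPA embryos. Filled symbols passed an adjusted p of 0.05. On the left the 48 hpf points lie above 0 and the 96 hpf points below it, and without replicate 4 the lower values of miR-221, miR-222 and miR-143 also pass. In these 3 miRNAs replicate 4 was the only VPA array above the vehicle arrays. miR-145 at 48 hpf lies at the floor.

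Whether the VPA effect differed between ages was tested as an interaction. The effect on miR-221 was lower at 96 than at 48 hpf by -0.30 ± 0.08 (log2, SE, 95% interval -0.46 to -0.13) with an adjusted p of 0.0143 (limma). That call ended with the percentile over detected probes (-0.24, adjusted p = 0.0872), with quantile normalization (-0.15, 0.417) and with normexp (-0.0069, 0.977). For miR-145 the difference was -0.45 ± 0.11 with an adjusted p of 0.0137, in which the 48 hpf side rests on values at the floor, and without a floor it was -0.10 with an adjusted p of 0.920. The differences for miR-126, miR-222 and miR-143 were -0.22 (adjusted p = 0.0672), -0.41 (0.0909) and -0.31 (0.108). So 2 of the 5 passed, both lower, where 12.4% of all 178 passed and 8.43% passed lower and 3.93% higher (7 higher and 15 lower, and 12 and 6 with quantile normalization, under which neither of the 2 passed). Without VPA 96 hpf replicate 4, miR-143, miR-145, miR-221 and miR-222 passed and miR-126 had an adjusted p of 0.0508 (24.2% of all 178 passed). As above, leaving out that array lowered the 96 hpf effects of miR-143, miR-221 and miR-222 in advance. Without all 3 of the brightest VPA arrays, miR-143, miR-145, miR-221 and miR-222 passed as well (28.1% of all 178 passed). That fit keeps only VPA replicates 1 and 2 at 96 hpf.

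All 5 had a higher mean in VPA than in vehicle embryos at 48 hpf and a lower one at 96 hpf, except that with normexp background correction miR-126, miR-221 and miR-222 were below 0 at 48 hpf and miR-126 above 0 at 96 hpf, and that in the unscaled deposited values the order holds for all 5 only relative to the median of all miRNAs. Of the 178 tested miRNAs, at most 38 (21.3%) had this order of signs. That count takes in let-7i, whose 48 hpf difference was 0 within rounding (8.88e-16). Of the 129 well above background on every array, 24 (18.6%) had it. These counts are of signs, not of passed tests, and the sign of miR-145 at 48 hpf rests on floored values and turned without the floor (-0.33). Close miRNAs that share a transcript or a probe sequence are not independent of each other.

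**Figure D3:**
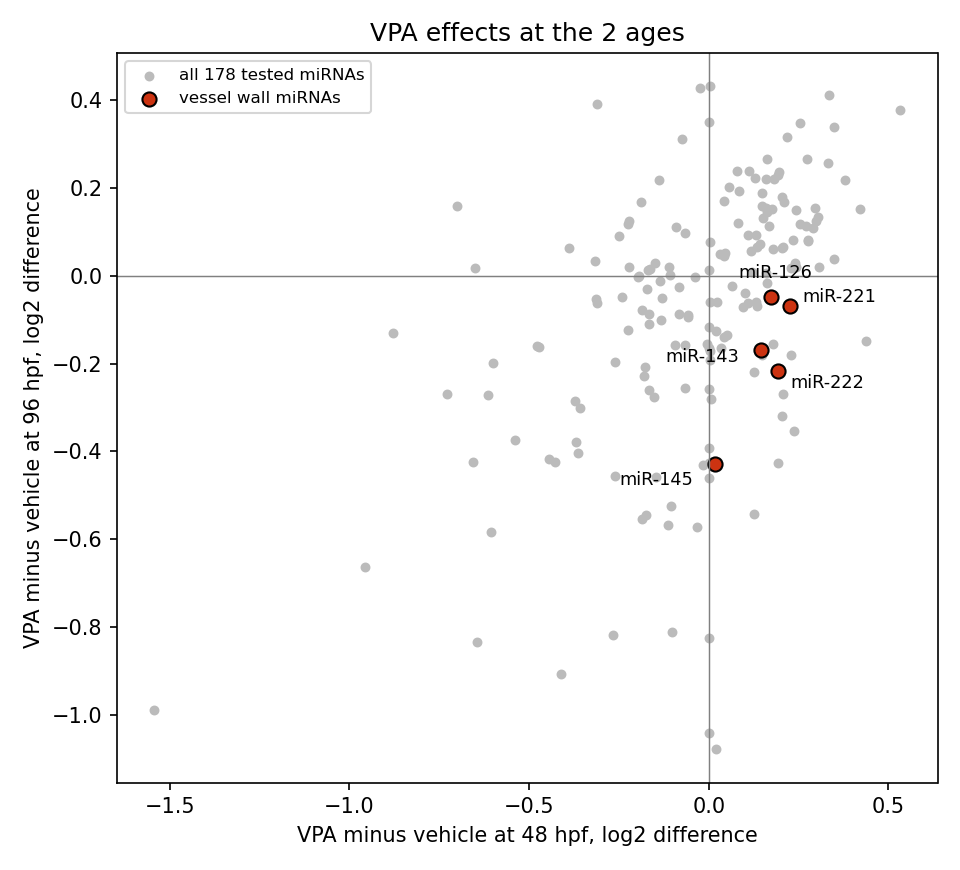
Log2 difference between VPA and vehicle means at 48 hpf (x axis) and at 96 hpf (y axis) for the 178 tested miRNAs, each a point, with the 5 vessel wall miRNAs in red. All 5 lie in the lower right quadrant, which holds at most 38 of the 178, and miR-145 lies close to the vertical line at 0. let-7i, counted among the 38, lies on that line. With normexp background correction 3 of the 5 lie left of that line.

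Shorter probes of the same miRNAs gave another reading of each effect. At 48 hpf the 3 probes of miR-126 gave 0.13, 0.15 and 0.17 (log2) with length, of which only the longest passed (adjusted p = 0.196, 0.0727 and 0.0210, limma). Both probes of miR-221 passed at 48 hpf, at 0.28 and 0.23 (adjusted p = 0.00509 and 0.00565). The 2 probes of miR-222 gave 0.19 each at 48 hpf and -0.22 each at 96 hpf, and those of miR-143 gave 0.09 and 0.15 at 48 hpf and -0.17 each at 96 hpf, none of them passing. The shorter miR-143 probe was well above background on 9 of 16 arrays.

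**Figure D4:**
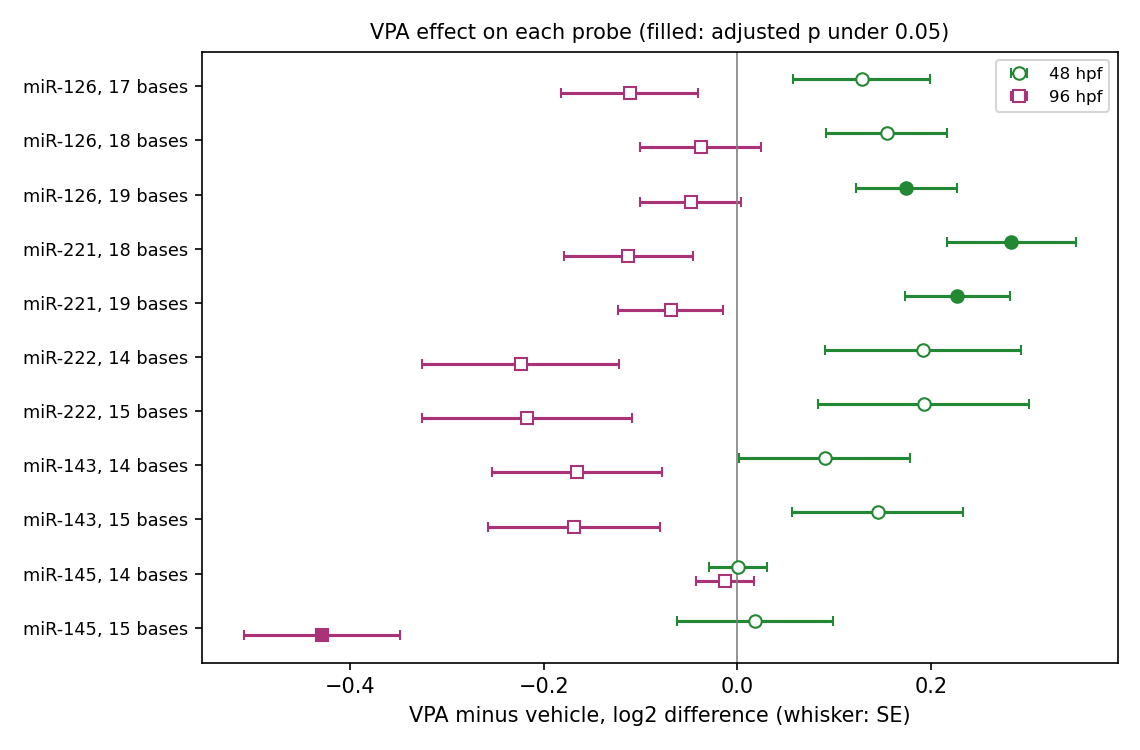
Log2 difference between VPA and vehicle means (x axis, whiskers SE) for each probe of the 5 miRNAs, named by length on the y axis, at 48 hpf (circles) and 96 hpf (squares), with filled symbols where the adjusted p was under 0.05. Probes of miR-126, miR-221, miR-222 and miR-143 gave the same sign within an age, and the 14-base probe of miR-145 lay at the floor.

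In vehicle embryos the smooth muscle pair rose with age. The mean of miR-143 went from -0.56 ± 0.05 to 0.55 ± 0.08 (SD, n = 4), a 2.17-fold rise with a 95% interval of 1.90 to 2.47 and an adjusted p of 1.38e-08 (limma). miR-145 was not well above background on any vehicle array at 48 hpf and was so on all 4 at 96 hpf. Set against the lowest signal well above background on each 48 hpf array, its mean was at least 1.74-fold higher at 96 hpf. This bound holds for the main scaling alone and has no interval. The floored means differed by 1.03 (log2, adjusted p = 1.28e-08, limma), and with normexp the difference was 0.59 and did not pass (adjusted p = 0.208). With quantile normalization it was 0.64 and passed (adjusted p = 0.000202, limma). No group of either miRNA overlapped between ages, as for 82.6% of all 178 in vehicle and 70.2% in VPA embryos.

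In VPA embryos miR-143 rose 1.74-fold from 48 to 96 hpf, with a 95% interval of 1.53 to 1.99 and an adjusted p of 7.62e-07 (limma). miR-145 was well above background on 0 VPA arrays at 48 hpf and on 4 at 96 hpf, with a difference of floored means of 0.58 (adjusted p = 9.18e-06), but the detection limits of the 48 hpf VPA arrays were too high for a lower bound above 1. With the floor set higher by 1 log2 unit, the difference was 0.0016 with an adjusted p of 0.975. That floor lies above the miR-145 value of every VPA array (at most -3.01), so a difference near 0 was fixed in advance. The call held without a floor and with quantile normalization (0.51, adjusted p = 0.00140, limma). With normexp the difference was -0.67 (adjusted p = 0.141). Whether the age change differed between VPA and vehicle embryos is the same interaction as above, which miR-143 did not pass (adjusted p = 0.108).

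The miR-221 and miR-222 pair moved the other way with age. In vehicle embryos miR-221 fell by 0.21 ± 0.05 (log2, SE, adjusted p = 0.00255) and miR-222 by 0.45 ± 0.11 (adjusted p = 0.00142), both from limma. The miR-221 call in vehicle embryos ended with quantile normalization (-0.06, adjusted p = 0.523), the percentile over detected probes (-0.09, 0.199), normexp (-0.21, 0.215), the scanner software's gene signal (-0.03, 0.614) and the shorter probe (-0.10, 0.172). In VPA embryos the falls were 0.50 ± 0.05 (adjusted p = 5.87e-07) and 0.86 ± 0.11 (adjusted p = 3.26e-06), and that of miR-221 ended with normexp (-0.21, adjusted p = 0.178). The highest group was VPA at 48 hpf for both, followed by vehicle at 48 hpf and vehicle at 96 hpf, and these 3 did not overlap with each other, while vehicle and VPA at 96 hpf did.

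In vehicle embryos miR-126 rose by 0.14 ± 0.05 (log2, SE, adjusted p = 0.0236, limma), a call that ended without vehicle 48 hpf replicate 2 (adjusted p = 0.0543) or replicate 3 (0.0833). It also ended with normexp (0.12, adjusted p = 0.478) and in the unscaled deposited values (1.07, adjusted p = 0.0725). In VPA embryos the difference was -0.08 ± 0.05 (adjusted p = 0.154) and its sign turned under several other scalings. Ordered by mean, vehicle at 48 hpf was the lowest group and VPA at 48 hpf the highest, and each group overlapped its neighbour in that order.

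All 5 passed between ages in vehicle embryos, 3 higher and 2 lower, and 4 of 5 in VPA embryos, 2 higher and 2 lower. Over all 178 miRNAs 80.3% passed in vehicle embryos (46.1% higher and 34.3% lower) and 77.5% in VPA embryos (41.6% higher and 36% lower), so most miRNAs passed between ages. Summed levels of 6 cartilage and mesenchyme miRNAs also rose with age in vehicle embryos (log2 of the sum 3.94 to 4.10 at 48 hpf and 4.49 to 4.54 at 96 hpf), as did the level of miR-122 (-2.51 to -2.26 and 0.32 to 0.38). Those of 2 erythroid miRNAs (1.72 to 1.85 and 0.49 to 0.64), 3 neural miRNAs (5.29 to 5.39 and 4.73 to 4.76) and 5 skeletal muscle miRNAs (5.33 to 5.43 and 5.10 to 5.32) were lower at 96 hpf with no overlap. The muscle sums nearly touched, with a lowest value of 5.330 at 48 hpf and a highest of 5.324 at 96 hpf. No other scaling was applied to these sums. Single miRNAs of 2 of these lists went both ways. Of the 3 neural miRNAs 1 passed higher and 1 lower (effects of -0.88 to 0.94, log2, limma). Of the 5 skeletal muscle miRNAs 1 passed higher and 2 lower (-1.07 to 0.48). The part of these cell types in the vessel wall results was not tested.

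Differences between partner miRNAs were also taken on the same array, where dividing by a single number per array cancels for values above the floor, though not for miR-145 near the floor or for quantile normalization. That of miR-221 and miR-222 was 0.71 ± 0.06 at 48 hpf and 0.95 ± 0.12 at 96 hpf (log2, SD, n = 4) in vehicle embryos, and 0.74 ± 0.03 and 1.10 ± 0.18 in VPA embryos, with no overlap of the arrays. That of miR-126 and miR-126*, the other arm of its hairpin, was 2.71 ± 0.13 and 2.90 ± 0.05 in vehicle and 2.68 ± 0.11 and 3.17 ± 0.31 in VPA embryos. These 4 gave the smallest p that an exact permutation test of 4 against 4 can give, 0.0286 (two-sided), and 0.0857 after adjustment over the 12 tests run, so none of the 12 passed. Between VPA and vehicle the 3 pairs gave adjusted p-values of 0.114 to 0.743 in the exact test.

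miR-126* read -1.36, -1.43, -1.33 and -1.37 on vehicle and -1.51, -1.64, -1.39 and -2.23 on VPA arrays at 96 hpf. Replicate 4 was the lowest, as it was for miR-126. The VPA effect on miR-126* was 0.20 ± 0.14 at 48 hpf and -0.32 ± 0.14 at 96 hpf (log2, SE), with adjusted p-values of 0.281 and 0.0908 (limma). The probe named miR-126b*, whose letters partly match those of miR-126, gave 0.09 ± 0.10 and -0.07 ± 0.10.

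Across the 16 arrays, which share the groups and 2 slides, the 2 pairs tracked within themselves, with Pearson's r of 0.95 for miR-221 and miR-222 and 0.94 for miR-143 and miR-145. Between the pairs r lay from -0.75 to -0.65, and miR-126 had r between -0.05 and 0.24 with the other 4. The miRNAs most like miR-221, from the detected miRNAs, were miR-222 (0.95), miR-133a* (0.95) and miR-30a (0.92), and those most like miR-222 were miR-221, miR-133c (0.94) and miR-30a (0.92). For miR-143 they were miR-24 (0.99), miR-200c (0.99) and miR-23a (0.98), and for miR-145 miR-29a (0.96), miR-129* (0.95) and miR-23a (0.94). For miR-126 they were miR-725 (0.68), miR-429 (0.66) and miR-454b (0.62). These values describe likeness over both ages and treatments and carry no test. miR-145 itself was well above background on 8 of the 16 arrays, below the 12 asked of the detected miRNAs. At the earlier age it lay at or next to the floor. Every r with miR-145 therefore sets values at or near the floor at the earlier age against detected values at the later age.

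A list of 33 other miRNAs linked to vessels in vertebrates, 29 of them tested, was set beside the 5. At 48 hpf 5 of the 29 were higher and 1 lower with VPA, where 16.3% of all 178 passed higher and 12.9% lower. At 96 hpf 5 were higher and 6 lower, near the shares of 14.6% and 18.5% over all 178. Its median effect was 0.11 at 48 hpf and -0.02 at 96 hpf (log2), beside 0.00 and -0.03 over all 178. Of those that passed, the following were picked after their values were seen. miR-10a, which acts in endothelial VEGF signalling in zebrafish, rose at both ages, by 0.27 ± 0.06 (adjusted p = 0.00483) and 0.27 ± 0.06 (0.00479). miR-29b, which lowers collagens, fell by 1.08 ± 0.11 at 96 hpf (adjusted p = 2.02e-06), and miR-21, a miRNA of heart valve formation in zebrafish, fell by 0.54 ± 0.08 (adjusted p = 0.000134), all from limma. Among the rest of the list at 96 hpf, miR-132 fell by 0.81 (adjusted p = 6.88e-08) and miR-210 rose by 0.39 (0.0221), also from limma. With normexp and in the unscaled deposited values 0 of all 178 miRNAs passed at 96 hpf, so these calls ended there. In the unscaled values 0 passed at 48 hpf as well.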

How the data were processed

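The authors' deposited scanner files give spot intensity, background-subtracted but not normalized between arrays, made with Agilent Feature Extraction 9.5.3.1 per the file headers (9.5 in the submitters' processing notes). The deposited value table holds the same intensity, unscaled, with 100% of values within 1% of the scanner files. Per the file headers, deposited flag columns (0 or 1) mark spots as above background, saturated or outlying, and probe positions refer to danRer6.

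Control spots (715 per array) and spots marked as outliers (3.32% to 8.07%) were left out. Intensity was divided by the array's 75th percentile, floored at 0.0682, logged and averaged over the spots of a probe, and the brightest probe stood for a miRNA. Testing required a majority of spots well above background on 3 or more of the 4 arrays of a group, met by 178 of 245 miRNAs. Group means of 16 arrays were fitted with limma 3.58.1 (lmFit, eBayes) in R 4.3.3 (data.table version 1.17.8, jsonlite version 2.0.0), two-sided, Benjamini-Hochberg adjusted over the 178, threshold 0.05. Figures used matplotlib 3.10.9 in Python 3.11.15. The fit was tested on simulated data.

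Vehicle arrays lay in column 1 and VPA arrays in column 2 of each slide, so treatment and array column cannot be told apart. Same-numbered arrays had residual correlations of 0.248 to 0.289 at 96 hpf, all 4 over 0.1, and -0.179 to 0.324 at 48 hpf. Likeness of all same-numbered arrays was thus seen at 96 hpf only, and its source was not tested. No 2 arrays held identical values. The number of arrays limits the precision.

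All 5 members were named in each comparison, with the opposite arm of miR-126 and the 3 miRNAs most correlated with each. Members and lists were chosen with earlier results of these data known. Alternatives were other background corrections, scalings, floors, filters, probes and signals, the deposited table, a trended robust fit, the compared groups alone, a replicate block, and arrays left out. Mature miRNA sequences were not used here.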

Additional observations from a re-analysis of the deposited data

Results flagged for a closer look

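The miR-222 value of vehicle 48 hpf replicate 2, 0.89, lay apart from the other 3 arrays of its group (1.04 to 1.06). It was the 1 group of 20 (5 miRNAs in 4 groups) with such a gap, and chance gives about 1 in 20.

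The VPA effect differed between ages, by the interaction test in limma, for miR-221 (-0.30) and for miR-145 (-0.45), where the 48 hpf values of miR-145 lay at or near the floor. With normexp or quantile normalization neither passed, and with the percentile over detected probes miR-221 did not.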

How the results depend on the processing

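Of 370 values of the 5 miRNAs under alternatives other than leaving out an array, 297 kept direction and side of the threshold, 32 kept direction but no longer passed, 9 newly passed and 32 changed sign. Of 400 values with 1 array left out, 386, 4, 9 and 1 did so. The replicate block changed no call of the 5 and gave 55, 57 and 22 passing miRNAs at 48 hpf, at 96 hpf and for their difference (52, 59 and 22 without it), and 143 and 138 for age in vehicle and VPA embryos.

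Counts of passing miRNAs moved by over 1.5 times under some settings, and the cause was not tested. With the deposited values unscaled they were 0 at 48 hpf (8 at an unadjusted p under 0.05), 0 at 96 hpf (0 unadjusted), 0 for the difference (1 unadjusted) and 78 for age in vehicle embryos, all from limma. With normexp they were 4, 0 (22 unadjusted), 2 and 84. At 96 hpf the count was 36 from the compared groups alone and 31 with miRNAs well above background on all arrays, where the difference gave 7 and fewer miRNAs were tested. Without the 3 brightest VPA arrays it was 81 at 48 hpf and 50 for the difference. With 1 array left out it ranged from 38 to 83 at 48 hpf and from 20 to 43 for the difference, the upper ends without VPA 96 hpf replicate 4.

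Unscaled values shifted the median of all miRNAs, against the scaled ones, by -0.32 at 48 hpf, 0.22 at 96 hpf, 0.60 for the difference, 0.87 for age in vehicle and 1.45 for age in VPA embryos. Values that changed sign there were, for miR-126, -0.26 at 48 hpf, 0.18 at 96 hpf, 0.44 for the difference and 1.52 for age in VPA. For miR-143 they were -0.29, 0.062 and 0.35 for the first 3 of these. For miR-221 they were -0.21, 0.16, 0.37 and 1.10, with 0.73 for age in vehicle, and for miR-222 -0.24, 0.013, 0.26, 0.74 and 0.49 likewise. Relative to the unscaled medians 5 of 5 were higher at 48 hpf and 5 of 5 lower at 96 hpf, but miR-126 for age in VPA stayed turned (0.051).

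Normexp shifted the median by 0.084 at 48 hpf, -0.068 at 96 hpf, -0.11 for the difference and -0.29 for age in VPA embryos. Relative to its medians 2 of 5 were higher and 3 lower at 48 hpf, and 2 higher and 3 lower at 96 hpf. It reversed miR-126 (-0.041 at 48 hpf, 0.0038 at 96 hpf, 0.045 for the difference, 0.17 for age in VPA), miR-221 (-0.0097 at 48 hpf), miR-222 (-0.00034 at 48 hpf) and miR-145 (-0.67 for age in VPA). For age in VPA embryos miR-126 also turned with the mean of all probes (0.030), its other probes (0.13 and 0.044), the percentile over detected probes (0.088), quantile normalization (0.14) and the scanner software's gene signal (0.10). miR-145 at 48 hpf turned without a floor (-0.33) and with the gene signal (-0.082), and with 1 array left out ranged from -0.0015 to 0.036.

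Of the within-array differences, the mean of all probes brought 7 past the threshold in the exact permutation test (adjusted p = 0.0490): miR-126 minus miR-126* for age in VPA (0.42) and in vehicle (0.15), miR-143 minus miR-145 for age in VPA (0.51), in vehicle (0.56) and for VPA at 48 hpf (0.11), and miR-221 minus miR-222 for age in VPA (0.32) and in vehicle (0.26). Those of miR-143 and miR-145 average in the shorter miR-145 probe, well above background on 2 of 16 arrays and otherwise near the floor. The other 4 already had the smallest possible p of 0.0286 in the main setting (0.0857 adjusted, exact test). They passed only because the miR-143 and miR-145 differences joined them at that p, so the 7 are no added support. The miR-143 and miR-145 difference turned for age in VPA and in vehicle without a floor (-0.73 and -0.52) and with the gene signal (-0.33 and -0.33), and at 48 hpf with normexp (-0.51). At 48 hpf that of miR-221 and miR-222 turned with normexp (-0.0094), and that of miR-126 and miR-126* ranged from -0.081 to 0.017 with 1 array left out. Signal over background limits miR-145 at 48 hpf.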
